A study of Mus musculus with 4 samples.

Results

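The effector genes of late radial glia and astroglia, which serve matrix building, glutamate uptake, glycolysis and lipid transport, were followed in cultured mouse cortical progenitors with and without a triple knockdown. The 10 genes were Hopx, Tnc, Ptprz1, Bcan, Sparcl1, Aldoc, Slc1a2, Clu, Apoe and Lrig1. They were chosen by symbol, through the GENCODE M21 annotation of the Ensembl identifiers, and are 10 of 34866 identifiers in the count table. All 10 passed the filter on low counts, among 14050 genes that did.

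Radial glia are the stem cells of the embryonic cerebral cortex. They first give rise to neurons and later, after a change in competence, to astrocytes. Late radial glia and young astrocytes build an extracellular matrix of tenascins and chondroitin sulphate proteoglycans, clear glutamate, and secrete apolipoproteins.

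The cells were neural stem and progenitor cells from the dorsal telencephalon of wild-type mouse embryos at E11.5, from which the cerebral cortex develops. They were dissociated, transduced with lentivirus and grown as neurospheres, free-floating clusters of dividing cells, for 5 days in medium with basic fibroblast growth factor. Triple knockdown cells (sh3F, 2 libraries) received pCS-EG-shPhf21b together with pLV-EG-shZfp7 and pLV-EG-shZfp57, each at a multiplicity of infection of 10, and shControl cells (2 libraries) received CS-EG-shControl at 30. The hairpins are aimed at Phf21b, which encodes a PHD-finger protein, and at the zinc-finger genes Zfp7 and Zfp57; the genotype label of these libraries spells the first and second of them Phf21 and Sfp7. Summed over vectors the dose was 30 in either group, but the number of vectors and, for the Zfp7 and Zfp57 hairpins, the backbone differed, and these differences cannot be told apart from the knockdown. All 4 libraries carry the same batch label, the mouse strain is not named in the labels, and nothing says that replicates came from separate cultures. The p-values therefore reflect the spread between libraries alone, and that spread may be technical. The question is whether targeting the 3 factors together changes the genes of the late, glia-competent stage.

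Libraries held 15170491 to 17901386 estimated counts in the triple knockdown and 14694387 to 20779211 in shControl. The unit of level used is CPM, a count divided by its library's total after scaling by the trimmed mean of M-values (TMM). The targeted transcripts were lower by point estimate without passing the test. Log2 fold changes were -0.40 for Zfp57, -0.29 for Phf21b and -0.37 for Zfp7 (edgeR adjusted p = 0.341, 0.644 and 0.80). Zfp57 and Phf21b had both triple knockdown libraries below both shControl libraries. For Zfp7 the groups overlapped, at 1.97 and 0.977 CPM in the triple knockdown, against 1.67 and 2.25 CPM in shControl. Transcripts from the mitochondrial genome made up 26.6% and 28.5% of counts in the triple knockdown, against 30.3% and 33.9% in shControl. With those genes left out, the same 3 of the 10 genes were called. The neural progenitor gene Sox2 was present in every library, at 49.997 and 55.6 CPM in the triple knockdown, against 66.9 and 62.1 CPM in shControl. Gfap, the filament protein of mature astrocytes, had 0 and 1 counts in the triple knockdown libraries and 0 and 1 in shControl. These markers fit the label of progenitor cells, and RNA of Gfap was hardly detected.

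Of the 10 genes, 3 fell in the triple knockdown, 0 rose and 7 did not pass the test. Sparcl1, Tnc and Hopx fell to between 60.5% and 69.0% of the shControl level, and all 3 calls were lost when either triple knockdown library was left out or scaling used only library totals. By edgeR's quasi-likelihood test with an adjusted p under 0.05, 1.37% of all tested genes were called, 0.826% lower and 0.541% higher. Point estimates were below 0 for 9 of the 10 genes, against 51.1% of all tested genes, and the exception was Lrig1. The median log2 fold change of the 10 was -0.37, and that of all tested genes -0.01. For 6 of the 10 both triple knockdown libraries lay below both shControl libraries, which was so for 21.7% of all tested genes. For 0 of the 10 both lay above, against 19.6%. The lean to lower signs and the separation of libraries were not particular to the 10 genes. Point estimates were below 0 for 8 of 10 cortical progenitor markers and 8 of 9 neuron markers. Both triple knockdown libraries lay below both shControl libraries for 6 of 10 and 6 of 9 of those markers. The 10 genes were chosen with earlier results of these data known, so the contrasts with all tested genes are a description and not a test. With 2 libraries a group, the design cannot give an exact permutation p below 0.33, so no such test was used. In bulk RNA, fewer cells of a type and less RNA per cell cannot be told apart.

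**Figure D1:**
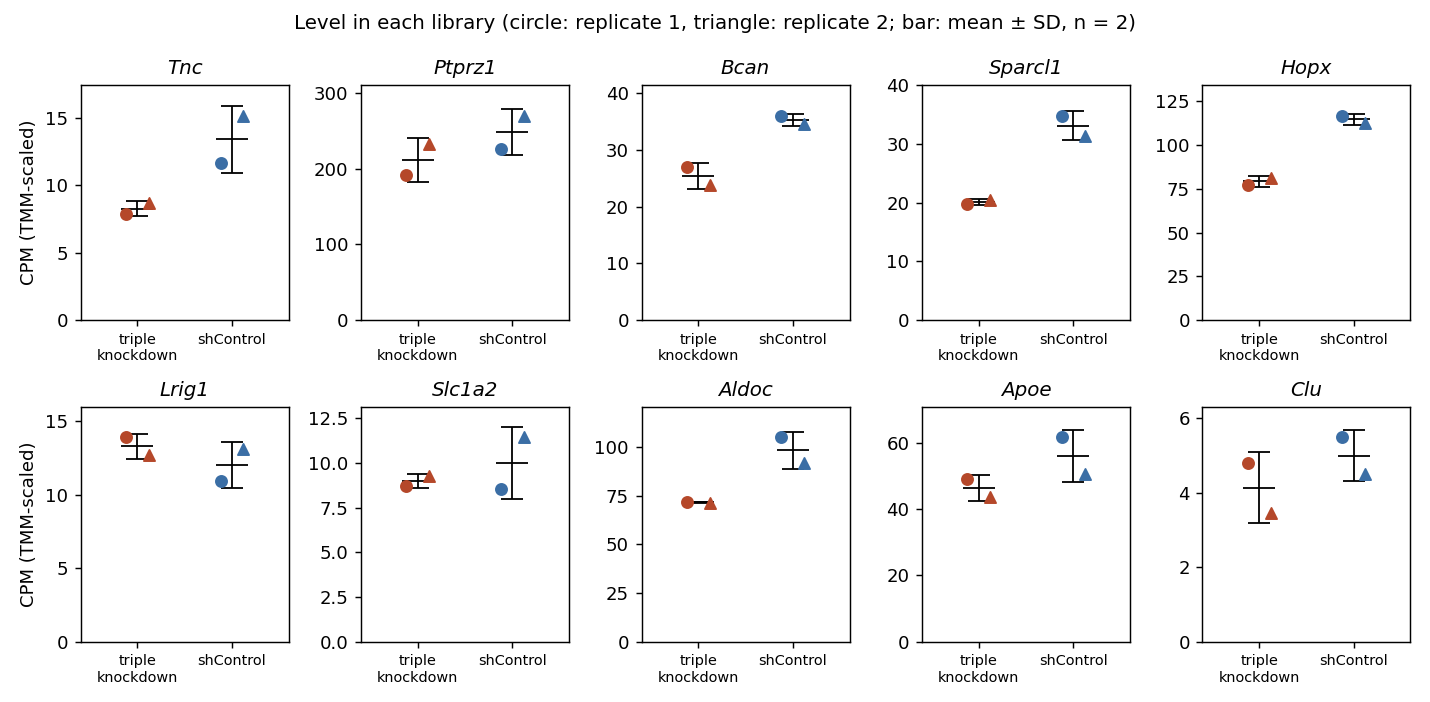
Level of each of the 10 genes in CPM scaled by TMM, with triple knockdown libraries (red) left of shControl libraries (blue), circles for replicate 1, triangles for replicate 2, and bars for the mean ± SD (n = 2). The groups do not overlap for Tnc, Bcan, Sparcl1, Hopx, Aldoc and Apoe, and they overlap for Ptprz1, Lrig1, Slc1a2 and Clu.

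Among the matrix genes, Sparcl1 and Tnc fell while Bcan and Ptprz1 did not pass. Sparcl1 (ENSMUSG00000029309.7, GRCm38 chromosome 5, 104079111 to 104113733, minus strand) encodes hevin, a secreted relative of SPARC that astrocytes release and that promotes synapse formation in mice. It measured 19.7 and 20.5 CPM in the triple knockdown, against 34.8 and 31.3 CPM in shControl. The groups were far apart, with means of 20.1 ± 0.557 and 33.1 ± 2.45 CPM (SD, n = 2 each). For Sparcl1 the log2 fold change came to -0.72 (SE 0.15, edgeR adjusted p = 0.00268), or 60.5% of control with a 95% interval of 49.0% to 74.8%. Of all tested genes, 2.70% had a more negative fold change.

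Tnc (ENSMUSG00000028364.15, chromosome 4, 63959785 to 64047015, minus strand) encodes tenascin C, a matrix glycoprotein of the germinal zones that binds the receptor made by Ptprz1. Its counts were low, at 148 and 133 in the triple knockdown and 251 and 202 in shControl. These correspond to 7.89 and 8.66 CPM, against 11.7 and 15.2 CPM. The shControl libraries differed from each other more than the triple knockdown libraries did, and the groups did not overlap. Tnc had a log2 fold change of -0.69 (SE 0.19, edgeR adjusted p = 0.0418), or 62.1% of control with an interval of 47.8% to 80.7%. The call is near the threshold: the adjusted p was 0.185 without shControl replicate 2, the library with the highest value, and 0.00167 without shControl replicate 1.

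Bcan (ENSMUSG00000004892.13, chromosome 3, 87987531 to 88000230) encodes brevican, a chondroitin sulphate proteoglycan of the lectican family. It measured 27.1 and 23.8 CPM in the triple knockdown, against 36.1 and 34.6 CPM in shControl. The groups did not overlap, yet the gene missed the threshold (log2 fold change -0.47, SE 0.15, edgeR adjusted p = 0.097; interval -0.77 to -0.17). Without shControl replicate 2 its log2 fold change was -0.49. Ptprz1 (ENSMUSG00000068748.7, chromosome 6, 22875502 to 23052916), the receptor-type phosphatase that carries chondroitin sulphate and binds tenascins, pleiotrophin and midkine, had the most counts of the 10 genes. It measured 191 and 232 CPM in the triple knockdown, against 226 and 270 CPM in shControl. In each group replicate 2 was the higher one, and triple knockdown replicate 2 lay above shControl replicate 1. On the log2 scale the difference was -0.23 (SE 0.14, edgeR adjusted p = 0.546), with an interval of -0.51 to 0.05.

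Of the pair tied to transcription and growth factor signalling, Hopx fell and Lrig1 did not pass. Hopx (ENSMUSG00000059325.14, chromosome 5, 77086988 to 77115121, minus strand) encodes a small homeodomain protein that does not bind DNA and is used as a marker of late and outer radial glia. It measured 77.0 and 81.4 CPM in the triple knockdown, against 117 and 113 CPM in shControl. Replicates lay close together in both groups, with means of 79.2 ± 3.12 and 115 ± 3.06 CPM. Hopx had a log2 fold change of -0.53 (SE 0.13, edgeR adjusted p = 0.0163), or 69.0% of control with an interval of 57.4% to 83.0%. Exons of the antisense gene Hopxos cover 27.2% of the exonic bases of Hopx, and 26.1% of its 31-base stretches also occur in another gene. The labels do not say whether strand was kept, so reads of the 2 genes may not be told apart, and Hopxos was not analysed here.

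Lrig1 (ENSMUSG00000030029.14, chromosome 6, 94604529 to 94700158) encodes a transmembrane protein that limits signalling by the epidermal growth factor (EGF) receptor. It measured 13.9 and 12.7 CPM in the triple knockdown, against 10.9 and 13.1 CPM in shControl. The groups overlapped. Its log2 fold change of 0.16 (SE 0.18, edgeR adjusted p = 0.806) was positive, with an interval of -0.20 to 0.51.

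The pair for glutamate uptake and glycolysis did not pass. Aldoc (ENSMUSG00000017390.15, chromosome 11, 78322968 to 78327781), which encodes the aldolase of astroglia and of some neurons, measured 71.5 and 71.3 CPM in the triple knockdown, against 105 and 91.6 CPM in shControl. The triple knockdown libraries were nearly equal and lay below both shControl libraries. The log2 fold change was -0.46 (SE 0.13, interval -0.73 to -0.20) and the edgeR adjusted p of 0.0577 lay just outside the threshold. Without shControl replicate 2 the log2 fold change was -0.54. Slc1a2 (ENSMUSG00000005089.15, chromosome 2, 102658659 to 102790784) encodes GLT-1, the main glutamate transporter of mature astrocytes. It measured 8.69 and 9.25 CPM in the triple knockdown, against 8.55 and 11.4 CPM in shControl, and shControl replicate 1 lay below both triple knockdown libraries. It differed by -0.14 on the log2 scale (SE 0.20, edgeR adjusted p = 0.849), and by 0.08 without shControl replicate 2.

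The apolipoprotein genes did not pass either. Apoe (ENSMUSG00000002985.16, chromosome 7, 19696109 to 19699188) encodes the lipid carrier that astrocytes and macrophages secrete. It measured 49.2 and 43.6 CPM in the triple knockdown, against 61.7 and 50.6 CPM in shControl. The groups were separated by a narrow gap between triple knockdown replicate 1 and shControl replicate 2. Its log2 fold change, -0.28 (SE 0.14), had an edgeR adjusted p of 0.418. Clu (ENSMUSG00000022037.15, chromosome 14, 65968483 to 65981547) encodes clusterin, a secreted chaperone also known as apolipoprotein J. It was the least counted of the 10, with 90 and 53 counts in the triple knockdown and 118 and 60 in shControl. These are 4.797 and 3.45 CPM, against 5.48 and 4.51 CPM, with overlapping groups. Its log2 fold change, -0.28 (SE 0.25), had an edgeR adjusted p of 0.728, and leaving out triple knockdown replicate 1 or 2 gave -0.54 or -0.07. Macrophages and choroid plexus also make these transcripts. The summed level of 10 microglia and macrophage markers was 34.9 to 40.5 CPM in the triple knockdown and 36.6 to 40.0 CPM in shControl, with 0 of 7 tested markers past the threshold. Point estimates were below 0 for 4 of these 7, against 51.1% of all tested genes. Both triple knockdown libraries lay below both shControl libraries for 1 of them and above for 1. Of their defining markers, Csf1r had 1 and 2.57 counts in the triple knockdown, against 0 and 0 in shControl. Cx3cr1 measured 1.28 and 1.37 CPM in the triple knockdown, against 0.557 and 1.35 CPM in shControl, and its groups overlapped. The summed level of 5 choroid plexus markers was 1068 to 1163 CPM in the triple knockdown and 814 to 1825 CPM in shControl, nearly all of it Ttr. The part of choroid plexus RNA in the values of Apoe and Clu was not tested.

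**Figure D2:**
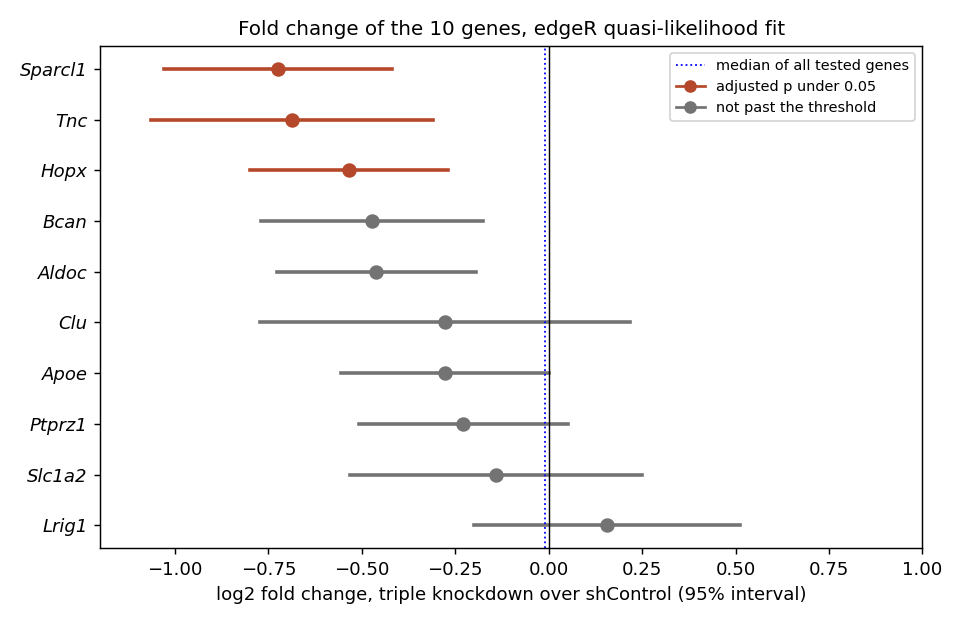
Log2 fold change of each of the 10 genes, triple knockdown over shControl, as a point with its 95% interval from the edgeR quasi-likelihood fit. Sparcl1, Tnc and Hopx (red, adjusted p under 0.05) lie between -0.72 and -0.53, and Lrig1 at 0.16 is the only positive estimate.

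Of the 7 genes that did not pass, 3 had separated groups, namely Bcan, Aldoc and Apoe. Bcan and Aldoc had edgeR adjusted p-values of 0.097 and 0.0577. Without shControl replicate 1 or 2 the log2 fold change was -0.44 or -0.49 for Bcan and -0.36 or -0.54 for Aldoc. Their intervals of the fold change exclude 0, as do those of the genes that fell, but those intervals are not corrected for the number of genes tested. For Apoe, Ptprz1, Slc1a2, Clu and Lrig1 the intervals include 0 and reach to 68.1%, 70.3%, 69.2%, 58.5% and 87.1% of control at their lower ends.

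The order of the levels was much the same in both groups. Per kilobase of the mean protein-coding transcript length in GENCODE M21, the level in CPM per kb was highest for Hopx (66.2 ± 2.61 in the triple knockdown, 95.8 ± 2.56 in shControl; SD, n = 2 each) and next for Apoe (52.6 ± 4.50, against 63.6 ± 8.92). Ptprz1 (31.9 ± 4.38, against 37.4 ± 4.64) and Aldoc (31.9 ± 0.0614, against 43.8 ± 4.18) followed, and their libraries overlapped in the triple knockdown. Bcan (14.5 ± 1.30, against 20.1 ± 0.615) and Sparcl1 (10.8 ± 0.299, against 17.7 ± 1.31) came next. At the low end stood Clu (4.23 ± 0.974, against 5.12 ± 0.705), Slc1a2 (3.23 ± 0.143, against 3.60 ± 0.732), Lrig1 (2.72 ± 0.175, against 2.46 ± 0.323) and Tnc (1.38 ± 0.0916, against 2.24 ± 0.415). In shControl the libraries of Lrig1 and Tnc overlapped, while in the triple knockdown both Tnc values lay below both Lrig1 values. No other neighbours in the order overlapped, in either group. The length used matters for this order: per kilobase of all exonic bases joined, Hopx was still highest, at 75.7 CPM per kb in shControl, and Slc1a2 was lowest, at 0.76. Places between them changed too. By that length, in shControl, Aldoc (30.1) stood above Apoe (26.2), and Sparcl1 (11.3) above Bcan (8.69).

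The 10 genes lie on 8 chromosomes, with Hopx and Sparcl1 far apart on chromosome 5 and Ptprz1 and Lrig1 on chromosome 6. Exons overlap an antisense gene in 4 of them, and for 9 of the 10 under 3% of the 31-base stretches occur in another gene. RefSeq promoter windows in build GRCm38.p6, from 250 bases before to 50 bases after an annotated start, were at hand for 8 of the 10 genes, in 13 windows. They were searched on both strands for the hexamer TGCCGC, which ZFP57 binds in mice when its cytosine is methylated, for TGGGAA, the core bound by the Notch effector RBPJ, for TTCNNNGAA, the core of STAT sites, and for the nuclear factor I palindrome. TGCCGC was found in windows of Hopx and Aldoc, 2 of 8 genes and 2 of 13 windows, against 11.6% of 32851 windows of all genes. TGGGAA was found in Tnc, Aldoc and Apoe, in 5 of 13 windows, against 25.6% of all windows. The Tnc windows overlap and share a match, at -2 and at -81 from their starts, so they do not count separately. TTCNNNGAA was found in another Aldoc window (8.3% of all windows), and the palindrome in 0 of 13 (0.0365% of all windows). Windows of Hopx and Tnc, which fell, and of Aldoc, just outside the threshold, are shown because they hold matches to the hexamer of a targeted factor or to the RBPJ core. The Hopx window is chr5:77115074-77115373 on the minus strand, the Tnc window chr4:64046966-64047265 on the minus strand and the Aldoc window chr11:78322823-78323122 on the plus strand. Capitals mark the matches, and with the start base counted as 0 they begin at -104 in Hopx (TGCCGC, reverse strand), at -250 (TGGGAA, reverse strand) and -2 (TGGGAA) in Tnc, and at -127 (TGGGAA) and 38 (TGCCGC, reverse strand) in Aldoc.
Hopx: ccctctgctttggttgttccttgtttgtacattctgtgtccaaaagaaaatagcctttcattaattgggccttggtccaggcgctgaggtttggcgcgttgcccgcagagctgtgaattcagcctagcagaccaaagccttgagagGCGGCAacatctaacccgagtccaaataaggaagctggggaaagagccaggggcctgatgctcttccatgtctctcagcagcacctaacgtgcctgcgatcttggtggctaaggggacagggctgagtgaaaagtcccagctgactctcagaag
Tnc: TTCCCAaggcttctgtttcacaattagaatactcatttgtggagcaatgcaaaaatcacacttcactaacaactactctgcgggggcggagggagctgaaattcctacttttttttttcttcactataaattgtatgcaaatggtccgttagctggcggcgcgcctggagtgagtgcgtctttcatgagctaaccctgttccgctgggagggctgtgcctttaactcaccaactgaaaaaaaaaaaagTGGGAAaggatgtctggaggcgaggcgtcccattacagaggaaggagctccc
Aldoc: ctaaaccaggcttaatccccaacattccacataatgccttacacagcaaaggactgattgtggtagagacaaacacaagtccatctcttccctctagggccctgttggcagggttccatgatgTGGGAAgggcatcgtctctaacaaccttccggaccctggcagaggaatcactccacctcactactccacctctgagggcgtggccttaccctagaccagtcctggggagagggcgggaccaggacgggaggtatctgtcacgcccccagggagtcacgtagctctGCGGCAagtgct
A match of letters is a description of the window and does not show that a factor is bound there.

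Among 18 other astroglial genes, 15 were tested, 1 fell, 0 rose and 14 did not pass, with a median log2 fold change of -0.18. The gene that fell was Ndrg2, a cytosolic protein of the N-myc downstream-regulated family that marks astrocytes. It measured 25.7 and 21.8 CPM in the triple knockdown, against 35.2 and 35.5 CPM in shControl (log2 fold change -0.57, SE 0.15, edgeR adjusted p = 0.0295). The adjusted p was 0.246 and 0.554 when triple knockdown replicate 1 or 2 was left out, 0.391 with scaling by library size alone and 0.272 with DESeq2. For 8 of the 15 both triple knockdown libraries lay below both shControl libraries and for 1, Tril, above, against 21.7% and 19.6% of all tested genes. Point estimates of the 15 ran from -1.35 to 0.17. They were below 0 for 12, against 51.1% of all tested genes. By edgeR, 5 of the 15 had an unadjusted p under 0.05, against 12% of all tested genes. Slc1a3, the glutamate transporter GLAST of radial glia, measured 44.9 ± 0.733 CPM in the triple knockdown and 45.3 ± 0.419 CPM in shControl. Its groups overlapped. It was picked after its values were seen and does not stand for the list.

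Regulators of gliogenesis did not pass in either direction, with 0 of 15 lower and 0 higher and a median log2 fold change of -0.07. The most abundant were Id3 and Id1, targets of bone morphogenetic protein signalling that restrain neurogenesis. Id3 measured 112 and 104 CPM in the triple knockdown, against 145 and 136 CPM in shControl (edgeR adjusted p = 0.159, and 0.046 without shControl replicate 2), and Id1 65.1 and 59.3 CPM, against 81.5 and 75.0 CPM (adjusted p = 0.253).

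Genes that act with the matrix members gave 0 lower and 0 higher of 12 tested among 13, with a median of -0.17. Ptn and Mdk, which encode the Ptprz1 ligands pleiotrophin and midkine, measured 1821 ± 182 and 121 ± 5.34 CPM in the triple knockdown, against 1968 ± 87.7 and 125 ± 3.23 CPM in shControl. Lipoprotein handling genes gave 0 and 0 of 11 tested among 12 (median -0.14), with Apod, a lipocalin of glia, at 24.6 and 21.8 CPM in the triple knockdown, against 26.1 and 25.0 CPM in shControl. Their receptor Lrp1 measured 10.7 and 9.51 CPM, against 11.1 and 17.5 CPM, with shControl replicate 2 far above the others. It was called lower without shControl replicate 1 (edgeR adjusted p = 0.00328) and not in the fit of all 4 libraries (adjusted p = 0.228).

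EGF receptor family and Lrig genes gave 0 and 0 of 12 tested among 13 (median -0.07). Egfr itself measured 19.0 and 20.1 CPM in the triple knockdown, against 15.3 and 20.7 CPM in shControl, and Lrig2, a relative of Lrig1, 5.17 and 4.04 CPM, against 3.34 and 3.91 CPM. Aldolases and glutamate handling genes gave 0 and 0 of 8 (median -0.09). Aldoa, the aldolase that most cells use, measured 144 and 134 CPM in the triple knockdown, against 177 and 135 CPM in shControl. Over all 73 tested genes of these lists, 1 fell and 0 rose by edgeR's adjusted p, and 11 had an unadjusted p under 0.05. Among all tested genes 1.37% were called and 12% had an unadjusted p under 0.05, so these shares in the lists were near the background. Signs leaned lower: point estimates were below 0 for 51 of the 73, against 51.1% of all tested genes. Both triple knockdown libraries lay below both shControl libraries for 24 of the 73 and above for 9, against 21.7% and 19.6%.

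**Figure D3:**
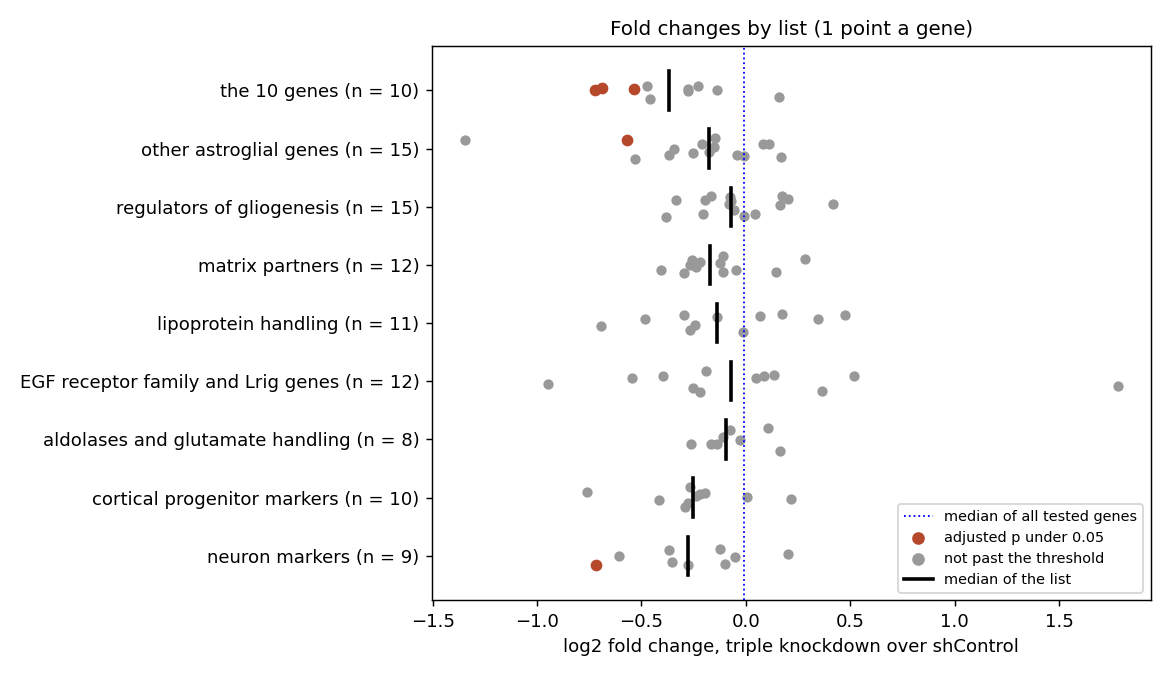
Log2 fold change of each tested gene, triple knockdown over shControl, for the 10 genes, the related lists and markers of cortical progenitors and neurons, with a black bar at each median. The 10 genes have a median of -0.37, the related lists medians between -0.18 and -0.07, and the progenitor and neuron markers medians of -0.25 and -0.28.

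Among markers of other cell types, Tubb3 and Hbb-y passed the test. The 9 neuron markers had a median log2 fold change of -0.28 with 1 lower, Tubb3 (64.3 and 61.6 CPM in the triple knockdown, 118 and 88.6 CPM in shControl; edgeR adjusted p = 0.000445), and their summed level was 552 to 555 CPM in the triple knockdown and 656 to 708 CPM in shControl. The 10 cortical progenitor markers had a median of -0.25 with 0 past the threshold. Their summed level, most of it Fabp7, was 20631 to 23335 CPM in the triple knockdown and 23020 to 28070 CPM in shControl. The summed level of oligodendrocyte lineage markers, cells that also express Ptprz1 and Bcan, was 95.8 to 103 CPM in the triple knockdown and 99.8 to 107 CPM in shControl. Most of that sum was Olig1 and Olig2. Both triple knockdown libraries lay below both shControl libraries for 1 of these 7 markers, Pdgfra, and above for 1, Olig2. Pdgfra measured 9.27 and 9.38 CPM in the triple knockdown, against 11.1 and 14.2 CPM in shControl (edgeR adjusted p = 0.319). Endothelial markers summed to 6.51 to 7.09 CPM, against 6.08 to 6.99 CPM, and mural and mesenchymal markers to 44.7 to 47.0 CPM, against 44.6 to 48.2 CPM. Erythroid markers summed to 23.8 to 26.9 CPM in the triple knockdown and 16.6 to 17.0 CPM in shControl, where Hbb-y, an embryonic globin gene, rose (log2 fold change 0.63, edgeR adjusted p = 0.0399). Both calls were lost when either triple knockdown library was left out, with adjusted p between 0.0657 and 0.0852 for Tubb3 and between 0.0858 and 0.974 for Hbb-y. They were also lost with scaling by library size alone (0.0728 for Tubb3, 0.111 for Hbb-y), and that of Hbb-y with DESeq2 (0.631) and with the replicate block (0.0529). The part of these cell types in the levels of the 10 genes was not tested.

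**Figure D4:**
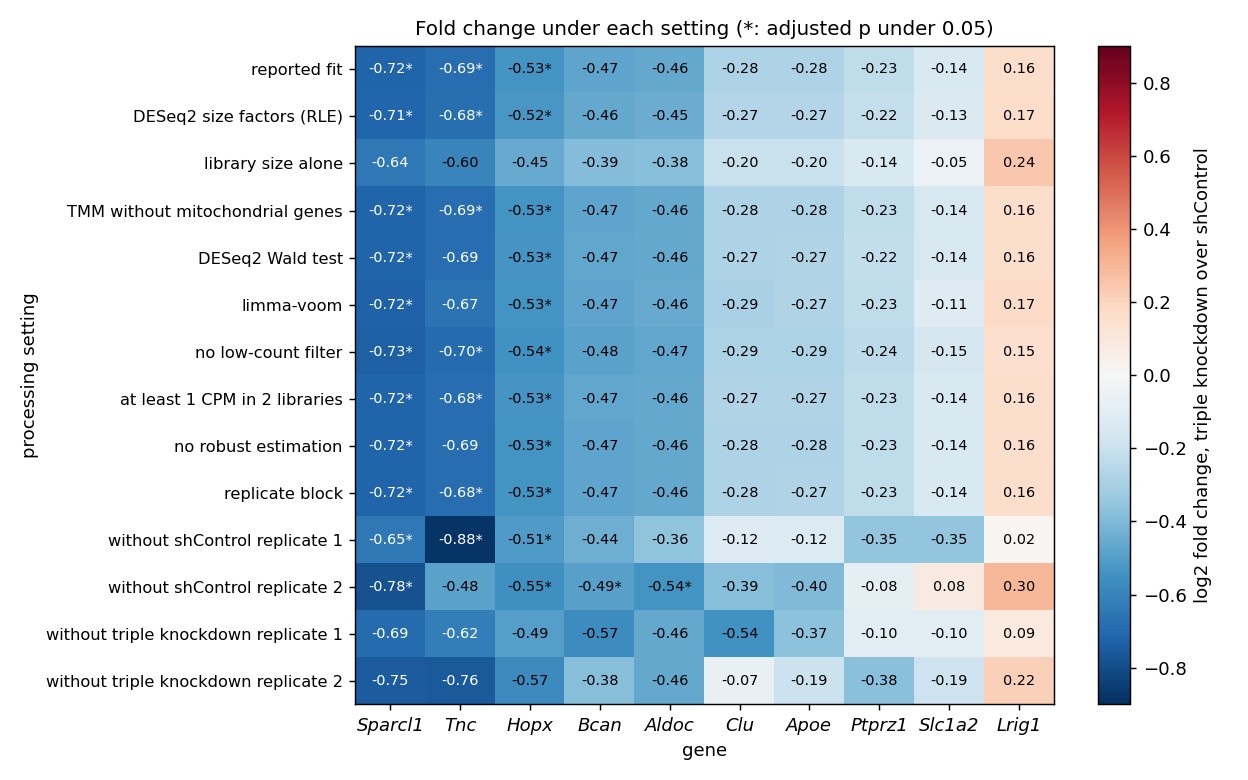
Log2 fold change of each of the 10 genes, triple knockdown over shControl, under the reported fit and 13 other settings, with an asterisk where the adjusted p was under 0.05. Sparcl1 and Hopx keep the asterisk in 10 of the 13 and Tnc in 6, and all 3 lose it when scaling uses only the library total or when a triple knockdown library is left out.

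How firm the calls are can be read from the plot of settings. Sparcl1 and Hopx passed in 10 of 13 alternatives, with log2 fold changes between -0.78 and -0.64 and between -0.57 and -0.45. Tnc passed in 6 of 13, with values between -0.88 and -0.48, and DESeq2 gave it an adjusted p of 0.776. None of the 10 was called with scaling by library size alone, where all tested genes together split into 77 higher and 28 lower, against 76 higher and 116 lower with TMM. None was called when triple knockdown replicate 1 or replicate 2 was left out, and all tested genes together then gave 44 and 63 calls.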

How the data were processed

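Per the submitters' processing notes the authors quantified reads with Salmon on the mouse builds GRCm38 and mm10, and they deposited estimated counts per gene, not normalized, for 34866 identifiers. The Salmon version, annotation and strand setting are not stated there. Per library 23.1% to 25.1% of the estimates were fractional, and they were rounded before testing. Identifiers were matched without version to GENCODE M21.

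The 10 genes and the lists were chosen with earlier results of these data known. Genes were tested with edgeR 4.0.16 (R 4.3.3): TMM, filterByExpr with a minimum count of 10, a robust quasi-likelihood fit, a two-sided F test, Benjamini-Hochberg adjustment over 14050 genes and a threshold of 0.05. The SE is the log2 fold change divided by the square root of F, and 95% intervals use the fit's t quantile. The fit was tested on simulated data that took their spread from these libraries, which cannot show whether that spread is technical. Alternatives used DESeq2 1.42.0, limma 3.58.1, other scalings and filters, a replicate block, and each library left out.

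Named genes were the 10, the 3 targets, list members past the threshold (up to 4 a list) or else the 2 most abundant, and 2 defining markers a cell type; a related-list gene and a marker under this rule are not reported here. Folds are triple knockdown over shControl.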

Additional observations from a re-analysis of the deposited data

How the results depend on the processing

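The number of the 10 genes called lower was 3, and it was 0 with scaling by library size alone, between 0 and 4 without 1 library (0 without either triple knockdown library, 3 without shControl replicate 1 and 4 without shControl replicate 2) and 2 or 3 under the other 8 alternatives. Their median log2 fold change stayed between -0.48 and -0.29. The related lists' 1 lower gene became 0 with scaling by library size alone and with DESeq2, and 0 to 3 without 1 library. Over all genes, 116 were lower and 76 higher; DESeq2 gave 32 and 23, library size alone 28 lower, and leaving out 1 library 17 to 334 lower and 27 to 280 higher. Samples that share a replicate number did not deviate together (correlation -0.0324), and the fit with a replicate block called 3 of the 10 genes, and 97 lower and 75 higher genes in all.

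Single estimates that changed sign were Mdk (0.036 with library size alone), Sox10 (-0.087 with limma-voom), and, without 1 library, Slc1a2 (-0.35 to 0.080), Zfp7 (-0.98 to 0.028), Egfr (-0.081 to 0.36), Aldoa (-0.34 to 0.043), Sox10 (-0.98 to 0.63), Cx3cr1 (-0.035 to 1.25), Pecam1 (-0.12 to 0.54), Pdgfrb (-0.40 to 0.15), Ttr (-0.72 to 0.46) and Folr1 (-0.47 to 0.51). Of these, Ttr passed the threshold without either shControl library, in opposite directions. The cause was not tested. Fits without 1 library take the spread of the lone sample from the other group. Clu, Slc1a2, Tnc and Lrig1 had the fewest counts of the 10 genes, 53 to 261 a library, and the largest SEs, 0.18 to 0.25.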
